A study of Rattus norvegicus with 12 samples.

Results

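The transcripts of sarcoplasmic reticulum (SR) calcium cycling were followed in the free walls of the left ventricle (LV) and the right ventricle (RV) of neonatal rats with or without volume overload (VO). The genes were taken by name, and 10 were named: Atp2a2, Pln, Ryr2, Casq2, Trdn, Jph2, Slc8a1, Camk2d, Sri and Itpr2. Of these, 9 were listed in the expression table of 32545 genes, and all 9 were among the 13910 genes that passed the filter on low values and were tested. Itpr2, a receptor channel for inositol trisphosphate, was not analysed here for expression.

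Sprague–Dawley rats were operated on postnatal day 1 and examined on postnatal day 7. VO was produced by a fistula between the abdominal aorta and the inferior vena cava, which returns arterial blood to the right heart, and control rats had a sham operation. mRNA of the LV or RV free wall was sequenced, giving 12 libraries, 3 from each ventricle of each operation, called sham LV, sham RV and their VO counterparts. Whether the LV and RV libraries came from the same animals, and whether animals were pooled, was not given in the sources used here, so the p-values measure only the spread between these libraries.

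In each heartbeat, calcium that enters the cardiomyocyte opens ryanodine receptors on the SR, and the calcium released there activates the myofilaments. Relaxation follows when the SR calcium pump returns calcium to the store and the sodium–calcium exchanger carries the remainder out of the cell. In the newborn heart the SR and the T-tubules are still maturing, and contraction relies more on calcium crossing the surface membrane than it does in the adult.

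Expression was given as FPKM, the density of sequenced fragments corrected for gene length and library depth, so levels can be set side by side between genes. Differences were tested on log2(FPKM + 0.5) with limma over all tested genes and all 12 libraries, with Benjamini-Hochberg adjustment of the p-values. On this scale the change of a gene with low FPKM is understated. A gene was called when its adjusted p was under 0.05 and its fold change over 1.3.

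The libraries held between 14121713 and 16871371 reads on genes, and 17128 to 17807 genes were above 0. Mitochondrial genes took 14.4% to 26.2% of the reads. By its expression over all genes, VO RV library 3 was nearest to sham LV library 1 (r = 0.979) and was itself the nearest library to sham LV library 2 (r = 0.97), with r taken across genes, which are not independent replicates. Being nearest to another group was common, since it held for 8 of the 12 libraries, with r of the nearest library between 0.969 and 0.98. Whether libraries were exchanged was not tested, so it stands as the library labelled VO RV 3. The largest fold changes and the calls that rest on VO RV library 3 are therefore given with and without it. The unadjusted counts, the counts without overlap, the medians and the correlations are given only with it. Markers of ventricular cardiomyocytes, of which 7 of 8 were listed, were abundant in every library, with a summed level of 17812 to 28267 FPKM. The atrial markers Myl7 and Bmp10 and the atrial SR regulator Sln stood out in sham RV library 1 (138, 12.6 and 97.7 FPKM) and in VO RV library 2 (463, 72.4 and 388 FPKM). Of the other atrial markers, Nppa, Myl4 and Pam were also highest in VO RV library 2 (3037, 599 and 239 FPKM). In sham RV library 1, Nppa and Myl4 (625 and 191 FPKM) lay below sham LV library 2 (844 and 250 FPKM). Dkk3 and Gja5 were highest in neither of these libraries. A fit with the atrial level as a covariate is given where it changed a count of members.

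The promoters of 6 members are printed, namely the 4 with the largest differences between the sham ventricles and the 2, Pln and Sri, with the smallest. Each line gives the 250 bases before the annotated start in RefSeq, 5′ to 3′ on the coding strand, from assembly GRCr8, and capitals mark the motifs that were searched on both strands.
Atp2a2: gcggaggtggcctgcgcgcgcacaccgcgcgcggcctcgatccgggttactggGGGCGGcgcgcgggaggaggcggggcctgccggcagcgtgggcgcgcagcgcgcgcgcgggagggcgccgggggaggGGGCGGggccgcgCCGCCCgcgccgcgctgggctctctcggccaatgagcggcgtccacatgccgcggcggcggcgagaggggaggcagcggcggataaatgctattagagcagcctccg
Ryr2: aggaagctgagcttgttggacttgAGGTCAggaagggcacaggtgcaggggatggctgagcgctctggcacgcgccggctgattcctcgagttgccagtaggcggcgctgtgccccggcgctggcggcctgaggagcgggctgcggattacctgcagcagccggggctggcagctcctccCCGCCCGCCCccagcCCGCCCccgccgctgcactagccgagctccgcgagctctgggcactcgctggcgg
Jph2: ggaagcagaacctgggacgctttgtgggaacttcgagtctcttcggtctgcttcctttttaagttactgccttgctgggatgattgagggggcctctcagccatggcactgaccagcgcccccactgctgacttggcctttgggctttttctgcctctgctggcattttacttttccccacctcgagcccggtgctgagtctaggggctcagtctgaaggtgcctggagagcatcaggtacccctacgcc
Slc8a1: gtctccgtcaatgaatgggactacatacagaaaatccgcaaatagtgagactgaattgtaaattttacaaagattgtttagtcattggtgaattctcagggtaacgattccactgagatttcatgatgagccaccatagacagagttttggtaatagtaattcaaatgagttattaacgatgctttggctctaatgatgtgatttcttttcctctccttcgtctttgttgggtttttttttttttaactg
Pln: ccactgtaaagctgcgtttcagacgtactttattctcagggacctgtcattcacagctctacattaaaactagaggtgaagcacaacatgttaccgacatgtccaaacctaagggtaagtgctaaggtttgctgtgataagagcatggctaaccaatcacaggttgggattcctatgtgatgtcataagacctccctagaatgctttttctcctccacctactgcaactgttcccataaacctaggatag
Sri: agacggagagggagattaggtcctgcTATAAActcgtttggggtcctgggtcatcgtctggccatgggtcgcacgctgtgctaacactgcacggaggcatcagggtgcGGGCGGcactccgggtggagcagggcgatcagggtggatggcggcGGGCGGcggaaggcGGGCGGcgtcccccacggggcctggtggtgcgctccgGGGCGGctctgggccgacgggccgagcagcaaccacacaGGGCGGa
The sequences lie at chr12:39733269-39733518 on the + strand for Atp2a2, chr17:63081277-63081526 on the + strand for Ryr2, chr3:172477922-172478171 on the − strand for Jph2, chr6:19023309-19023558 on the + strand for Slc8a1, chr20:33172244-33172493 on the + strand for Pln and chr4:26942658-26942907 on the − strand for Sri. They were matched to the measured genes by symbol alone. Ryr2 and Slc8a1 are on the + strand of GRCr8 and on the − strand in the deposited table, whose build was not given in the sources used here, so the windows were not checked against the measured gene models. The motifs searched were the GC box GGGCGG, the TATA box TATAAA, the nuclear receptor half-site AGGTCA, the TEAD motif CATTCC and the GATA motif AGATAA. They were chosen after the expression values had been seen. The Atp2a2 window held 3 GC boxes and was 80.0% G or C. The Ryr2 window held 3 GC boxes, a pair of which overlap, and 1 half-site, and was 72.0% G or C. The Sri window held 5 GC boxes and 1 match to the TATA box, and was 70.0% G or C. That match lay far from the start, at −224 to −219. The windows of Jph2, Slc8a1 and Pln held none of these motifs and were 57.2%, 35.2% and 44.0% G or C, beside a median of 51.2% over all 33469 promoters. A GC box was found in 30.5% of all promoters and in 5 of the 10 members (Itpr2 included), a half-site in 14.1% and in 1 member, a TATA box in 12.9% and in 1 member, a TEAD motif in 12.1% and in 0 members, and a GATA motif in 10.3% and in 0 members. The 4 members with the largest differences thus had promoters of unlike base composition, and a match of letters is a description only.

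By mean FPKM, Pln ranked 39 and Atp2a2 ranked 88 among the 13910 tested genes, followed by Casq2 at 202, Jph2 at 664, Sri at 1418, Camk2d at 1463, Slc8a1 at 1861, Ryr2 at 2034 and Trdn at 3083. The spread over the 12 libraries ran in a different order. The highest library exceeded the lowest 6.45-fold for Slc8a1, 4.68-fold for Jph2, 2.63-fold for Ryr2 and 2.39-fold for Atp2a2, while the range was 2.03-fold for Trdn, 1.66-fold for Pln, 1.58-fold for Casq2, 1.40-fold for Camk2d and 1.29-fold for Sri. All 3 sham LV libraries were among the 4 lowest libraries for Atp2a2, Ryr2, Trdn, Jph2 and Slc8a1.

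**Figure D1:**
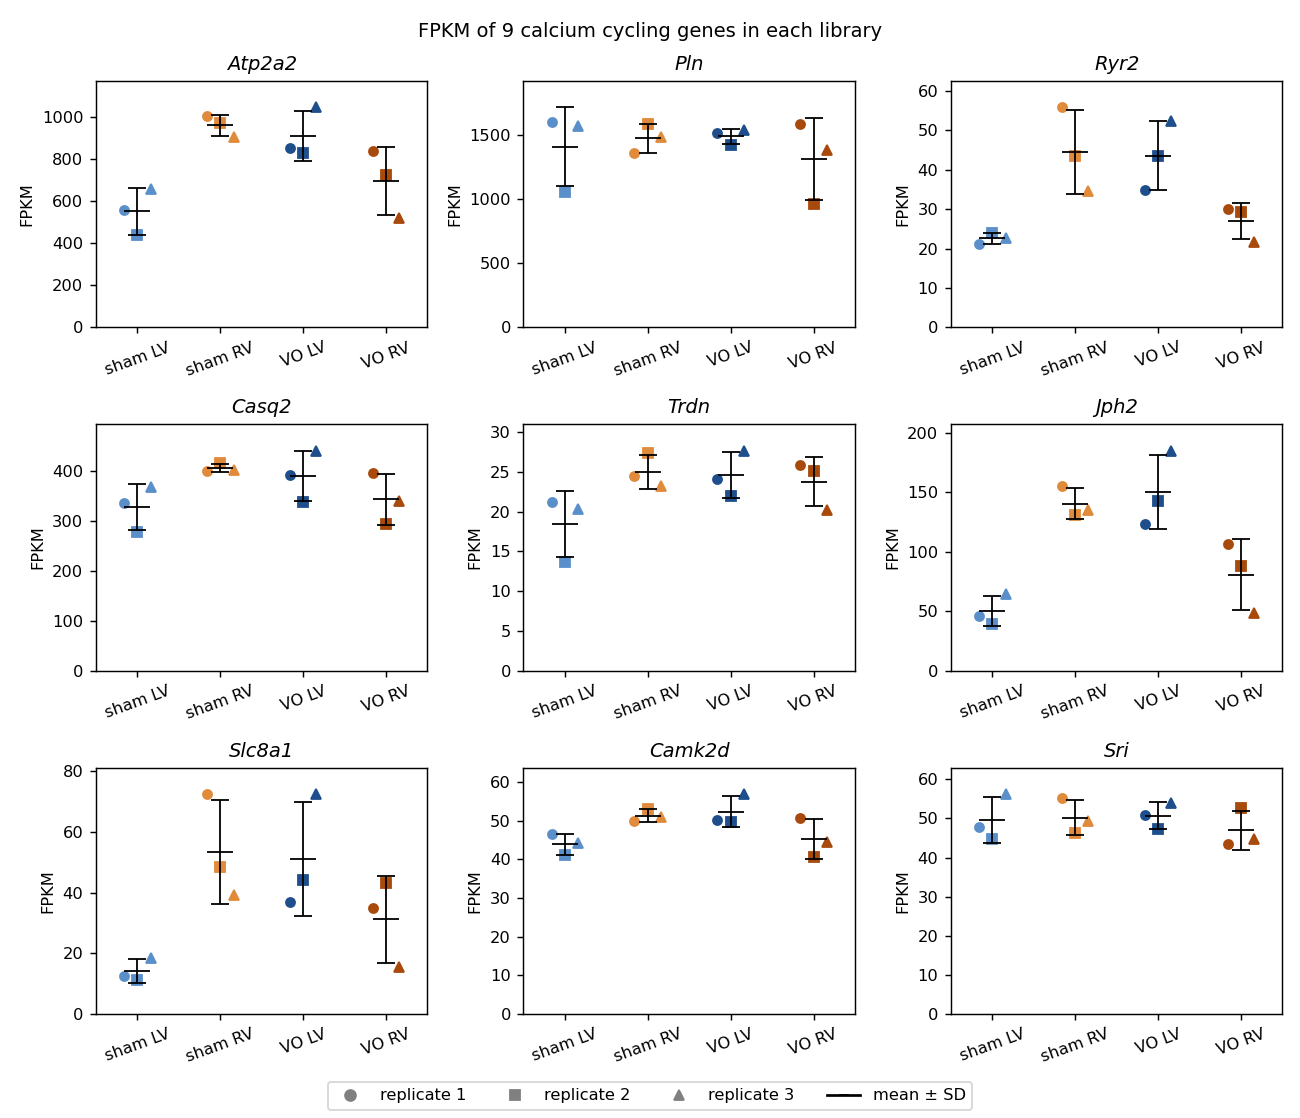
FPKM of 9 calcium cycling genes in each library, with the groups on the x axis, 1 point per library and the black bars showing the group mean ± SD (n = 3). Sham LV is the lowest group for Slc8a1, Jph2, Ryr2 and Atp2a2, while the groups overlap for Pln and Sri.

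Uptake into the SR is carried out by Atp2a2, which encodes the pump SERCA2 (ENSRNOG00000001285, chr12:39553903-39603326 on the + strand as the deposited table lists it, with a gene length of 6620 bases). The genome build of the table was not given in the sources used here, which holds for every position taken from it. In sham LV libraries 1, 2 and 3, Atp2a2 was at 559.1, 436.7 and 657.3 FPKM. In sham RV it was at 1002, 969.4 and 905.6 FPKM. In VO LV it was at 852.5, 830.3 and 1044 FPKM, and in VO RV at 838.9, 721.8 and 521.5 FPKM. Every sham LV library was therefore below every sham RV library and every VO LV library, and VO RV library 3 lay within the sham LV range. The means were 551 ± 110.5 FPKM for the sham LV and 958.9 ± 48.9 FPKM for the sham RV, and with VO they were 909.1 ± 117.7 FPKM in the LV and 694.1 ± 160.5 FPKM in the RV (SD, n = 3 for each).

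Pln encodes phospholamban, the small SR protein that restrains SERCA2 until it is phosphorylated (ENSRNOG00000000413, chr20:34633157-34642904 on the + strand, 2254 bases). Pln was at 1604, 1054 and 1568 FPKM in sham LV, and at 1361, 1587 and 1484 FPKM in sham RV. It was at 1513, 1422 and 1537 FPKM in VO LV, and at 1590, 963.8 and 1382 FPKM in VO RV. The 4 groups overlapped, and the low libraries were sham LV 2 and VO RV 2. The Pln gene overlaps Cep85l on the opposite strand, and whether the counting used strand was not given in the sources used here, so part of either gene's reads may belong to the other.

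Release from the SR runs through Ryr2, the cardiac ryanodine receptor (ENSRNOG00000017060, chr17:65535403-65955606 on the − strand, 14817 bases). Ryr2 was at 21.17, 24.02 and 22.66 FPKM in sham LV and at 55.76, 43.37 and 34.57 FPKM in sham RV. It was at 34.88, 43.48 and 52.27 FPKM in VO LV and at 29.9, 29.24 and 21.73 FPKM in VO RV. Sham LV was the tightest group at 22.6 ± 1.43 FPKM and lay below all libraries of sham RV (44.6 ± 10.6 FPKM) and of VO LV (43.5 ± 8.70 FPKM). All VO RV libraries (27.0 ± 4.54 FPKM) were below all sham RV libraries. The Ryr2 gene also overlaps an unnamed antisense gene, AABR07028336.1, on the opposite strand.

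Casq2 and Trdn belong to the same release unit, since calsequestrin 2 stores calcium in the SR lumen and triadin links it to the ryanodine receptor. Casq2 (ENSRNOG00000016243, chr2:204512302-204568656 on the + strand, 2529 bases) was at 336.1, 277.4 and 367.1 FPKM in sham LV and at 399.8, 415.1 and 400.6 FPKM in sham RV. It was at 391.2, 337.8 and 438.8 FPKM in VO LV and at 395.7, 293.7 and 339.8 FPKM in VO RV. Sham RV was the tightest group for Casq2 at 405.2 ± 8.59 FPKM, above all sham LV libraries and all VO RV libraries. Trdn (ENSRNOG00000012609, chr1:25403391-25839345 on the − strand, 4418 bases) was at 21.24, 13.64 and 20.32 FPKM in sham LV and at 24.46, 27.38 and 23.2 FPKM in sham RV. It was at 24.1, 21.9 and 27.64 FPKM in VO LV and at 25.88, 25.1 and 20.22 FPKM in VO RV. Sham LV was again below sham RV and VO LV without overlap, and the distance was widened by sham LV library 2.

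Jph2 encodes junctophilin 2, which ties the SR to the T-tubule membrane so that entry and release channels face each other (ENSRNOG00000008170, chr3:159712325-159775643 on the − strand, 2127 bases). Jph2 was at 46.32, 39.49 and 64.21 FPKM in sham LV and at 154.9, 131.2 and 135.0 FPKM in sham RV. It was at 123.6, 142.3 and 184.8 FPKM in VO LV and at 106.4, 87.89 and 48.26 FPKM in VO RV. The lowest VO LV library was just below the lowest sham RV library and well above the highest sham LV library. All 3 VO RV libraries were below all sham RV libraries, and VO RV library 3 was within the sham LV range.

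Slc8a1 encodes the sodium–calcium exchanger NCX1, the main route by which the cardiomyocyte extrudes calcium (ENSRNOG00000008479, chr6:4258991-4520604 on the − strand, 3020 bases). Slc8a1 was at 12.64, 11.25 and 18.52 FPKM in sham LV and at 72.56, 48.54 and 39.33 FPKM in sham RV. It was at 36.96, 44.09 and 72.51 FPKM in VO LV and at 35.06, 43.33 and 15.47 FPKM in VO RV. Sham LV was lowest at 14.1 ± 3.86 FPKM, while sham RV (53.5 ± 17.2 FPKM) and VO LV (51.2 ± 18.8 FPKM) had close means and a wide spread. In VO RV, library 3 was within the sham LV range and library 2 within the sham RV range. An unnamed gene on the opposite strand, AABR07062708.1, overlaps Slc8a1.

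The remaining regulators varied little. Camk2d, the delta isoform of calcium/calmodulin-dependent kinase II, which phosphorylates both phospholamban and the ryanodine receptor (ENSRNOG00000011589, chr2:230901126-231132039 on the + strand, 4012 bases), was at 43.9 ± 2.75 FPKM for the sham LV and 51.3 ± 1.62 FPKM for the sham RV, and with VO at 52.3 ± 4.01 FPKM in the LV and 45.3 ± 5.14 FPKM in the RV. Its sham LV libraries ran from 41.03 to 46.51 FPKM, below all sham RV libraries (49.88 to 53.06 FPKM) and all VO LV libraries (49.8 to 56.93 FPKM). Sri encodes sorcin, a calcium-binding protein that damps ryanodine receptor opening (ENSRNOG00000049780, chr4:23006243-23018983 on the − strand, 847 bases). Sri was at 49.6 ± 5.93 and 50.2 ± 4.51 FPKM in sham LV and RV and at 50.7 ± 3.40 and 47.0 ± 5.0 FPKM in VO LV and RV, with overlap between all groups.

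The sham groups were compared first, to ask how the ventricles of normal neonatal hearts differ in these transcripts. The sham LV held less Jph2, Ryr2, Slc8a1 and Atp2a2 than the sham RV, at mean levels of 0.356, 0.508, 0.264 and 0.575 times those of the RV. These 4 of 9 members were called in the sham comparison, all in the same direction, and 3.85% of all tested genes were called. The log2 fold change of LV against RV was −1.51 for Jph2 (SE 0.27, 95% interval −2.09 to −0.92, limma adjusted p = 0.0319). It was −0.94 for Ryr2 (SE 0.19, interval −1.35 to −0.53, adjusted p = 0.0356) and −1.87 for Slc8a1 (SE 0.38, interval −2.69 to −1.04, adjusted p = 0.0358). For Atp2a2 it was −0.82 (SE 0.19, interval −1.23 to −0.41, adjusted p = 0.0423). In bulk tissue, fewer cardiomyocytes and less of these transcripts per cardiomyocyte cannot be told apart.

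The other 5 members did not pass the threshold between the sham ventricles. The log2 fold change was −0.46 for Trdn (adjusted p = 0.115), −0.22 for Camk2d (adjusted p = 0.167) and −0.32 for Casq2 (adjusted p = 0.177). For Pln it was −0.09 with a 95% interval of −0.53 to 0.34, and for Sri −0.02 with an interval of −0.27 to 0.22. The intervals of Pln and Sri exclude a difference of the size measured for Jph2, Slc8a1, Ryr2 and Atp2a2. At the unadjusted level (p under 0.05 with the same fold threshold), 5 of 9 members passed, beside 17.8% of all tested genes. LV and RV did not overlap for 7 of 9 members, all lower in the LV, beside 32.2% of all tested genes without overlap in either direction. With 3 libraries against 3, the exact two-sided permutation test of a single gene cannot go below 0.10, which is its value wherever groups do not overlap.

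The contractile cardiomyocyte markers differed from each other in sign. Myh6 and Myh7, the cardiac myosin heavy chains, had log2 fold changes of −0.50 (limma adjusted p = 0.0538) and −0.46 (adjusted p = 0.0674) in sham LV against sham RV, the same sign as the members and without overlap. In the difference of responses they passed the test, at 0.89 for Myh6 (adjusted p = 0.0319) and 1.18 for Myh7 (adjusted p = 0.0249), while the other 5 were at −0.51 for Tnni3, −0.24 for Tnnt2, −0.05 for Myl3, 0.20 for Myl2 and 0.48 for Actc1, with adjusted p from 0.263 to 0.929. Tnni3, cardiac troponin I, had a log2 fold change of 0.57 between the sham ventricles (adjusted p = 0.104), Tnnt2, cardiac troponin T, 0.31 (adjusted p = 0.273) and Myl3, a myosin light chain, 0.29 (adjusted p = 0.377), each higher in sham LV without overlap. Actc1 and Myl2 had values of −0.14 and 0.07 and overlapped. No contractile marker passed the threshold between the sham ventricles. The summed ventricular cardiomyocyte markers ran from 25120 to 26475 FPKM in sham LV and from 21418 to 25092 FPKM in sham RV. The endothelial sum (5 of 6 markers listed) was 348 to 375 FPKM in sham LV and 256 to 279 FPKM in sham RV, and the red blood cell sum (5 of 6 listed) was 13309 to 17238 FPKM and 6747 to 11326 FPKM. The fibroblast sum (8 of 8 listed) was 2589 to 2785 FPKM in sham LV and 2771 to 3634 FPKM in sham RV, and the atrial sum (8 of 8 listed) was 854 to 1327 FPKM and 457 to 1333 FPKM. Most of the atrial sum in sham LV was Nppa (519 to 951 FPKM), while Sln and Bmp10 were near 0 there (at most 0.218 and 0.14 FPKM). The smooth muscle sum (5 of 5 listed) was 411 to 514 FPKM in sham LV and 349 to 378 FPKM in sham RV, and the macrophage sum (6 of 6 listed) was 38.6 to 42.4 FPKM and 31.4 to 37.9 FPKM. The part of the endothelial, red blood cell, fibroblast, smooth muscle and macrophage levels in the differences was not tested. With the atrial level as a covariate 4 of 9 members were called, beside 4.82% of all tested genes, and with the cardiomyocyte level as a covariate 0 of 9, beside 0.0431%, where the adjusted p of these 4 members ran from 0.131 to 0.156 and their log2 fold changes from −1.42 to −0.75.

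The sham calls also depended on single libraries. Without sham LV library 1, sham LV library 2, sham RV library 1, sham RV library 2 or VO LV library 2, 0 of 9 members were called in the sham comparison, in fits that called 0 to 5 of all tested genes. Over all 12 fits with a library left out, the log2 fold change stayed between −1.70 and −1.35 for Jph2, −2.07 and −1.63 for Slc8a1, −1.11 and −0.77 for Ryr2, and −0.96 and −0.66 for Atp2a2, while the highest adjusted p were 0.127, 0.134, 0.132 and 0.150, each without sham RV library 1. Libraries also differed in how FPKM depended on gene length, and Ryr2 has the longest gene model of the members. The slope of the deviation from the mean was −0.029, −0.060 and −0.028 log2 units per doubling of gene length in sham LV and 0.051, 0.030 and −0.0006 in sham RV. It was 0.0025, 0.0015 and 0.045 in VO LV and −0.016, 0.036 and −0.034 in VO RV. With this trend removed, the log2 fold change between the sham ventricles was −0.75 for Ryr2 (adjusted p = 0.038), −1.50 for Jph2 (adjusted p = 0.036) and −1.83 for Slc8a1 (adjusted p = 0.038), and −0.71 for Atp2a2, whose call was lost (adjusted p = 0.0515).

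**Figure D2:**
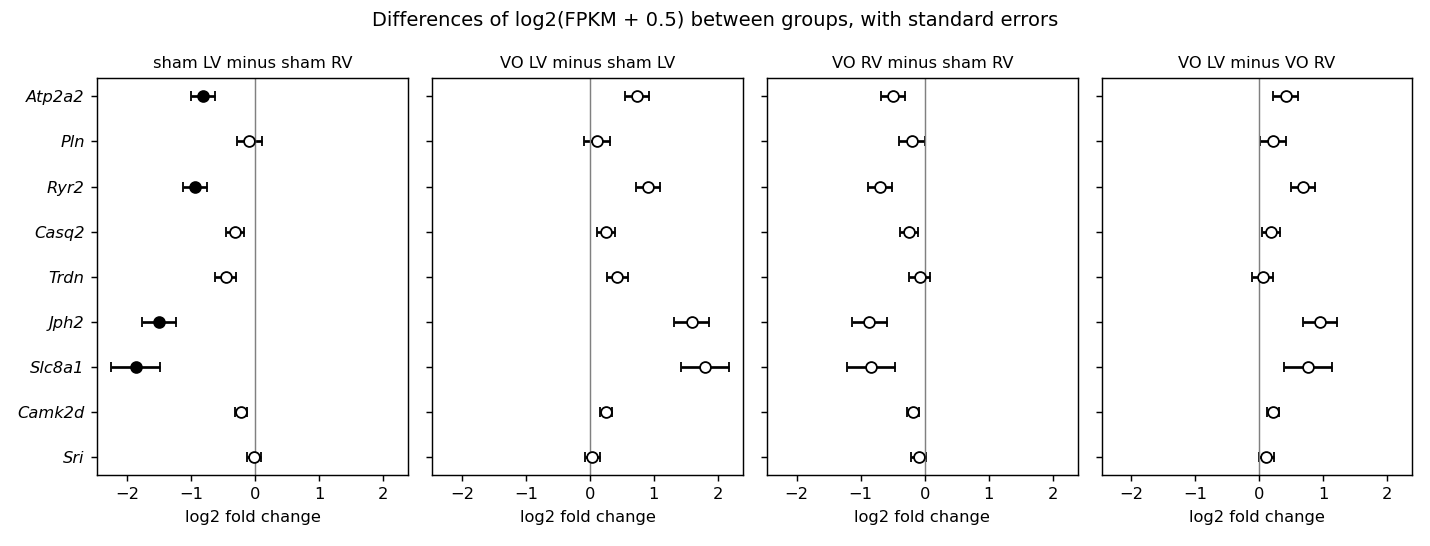
Log2 fold changes of 9 calcium cycling genes in 4 comparisons, on the log2(FPKM + 0.5) scale, with points at the estimate, bars of ± 1 SE from limma and filled points for called genes. The filled points are Atp2a2, Ryr2, Jph2 and Slc8a1 in sham LV minus sham RV, all left of 0.

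The LV response to VO was then examined. None of the 9 members was called (0 of 9, beside 0.0935% of all tested genes), although all had positive log2 fold changes and 3 were just short of the adjusted threshold. Jph2 was 3.0 times, Slc8a1 3.62 times, Ryr2 1.93 times and Atp2a2 1.65 times as high in VO LV as in sham LV by the ratio of mean FPKM. The log2 fold change was 1.59 for Jph2 (SE 0.27, interval 1.00 to 2.18, adjusted p = 0.0514), 0.91 for Ryr2 (SE 0.19, interval 0.50 to 1.33, adjusted p = 0.0534) and 1.79 for Slc8a1 (SE 0.38, interval 0.97 to 2.62, adjusted p = 0.0534). For Atp2a2 it was 0.74 (SE 0.19, interval 0.32 to 1.15, adjusted p = 0.0703). At the unadjusted level 5 of 9 members passed, namely these 4 and Trdn, beside 15.7% of all tested genes. VO LV and sham LV did not overlap for 6 of 9 members, these 5 and Camk2d, each higher in VO LV, beside 32.4% of all tested genes.

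The smaller differences in the LV were 0.43 for Trdn (adjusted p = 0.155), 0.25 for Camk2d (adjusted p = 0.151) and 0.26 for Casq2 (adjusted p = 0.288) on the log2 scale. For Pln the log2 fold change was 0.11 with an interval of −0.33 to 0.54, and for Sri 0.04 with an interval of −0.21 to 0.28. Because sham LV is the reference here and also a side of the sham comparison, the values of these comparisons are not independent of each other. The count changed with VO RV library 3, which is in neither group of this comparison but shares the fit, the filter and the scaling. Which of these moved the count was not tested. Without it 4 of 9 members were called, with adjusted p of 0.0134 for Jph2, 0.0156 for Slc8a1, 0.0258 for Ryr2 and 0.0353 for Atp2a2, and 3.99% of all tested genes were called in that fit. Without sham LV library 3 the count was 2, beside 2.19% of all tested genes, and without VO RV library 1 it was 1, beside 1.27%. Beside these differences, the endothelial sum was 293 to 323 FPKM in VO LV, below the 348 to 375 FPKM of sham LV, and the fibroblast sum was 2065 to 2541 FPKM, below 2589 to 2785 FPKM. The macrophage sum was 34.8 to 37.1 FPKM, below 38.6 to 42.4 FPKM. Their part was not tested. With the atrial level as a covariate, 3 of 9 members were called, beside 1.93% of all tested genes.

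In the RV, every member had a negative log2 fold change with VO, and none was called (0 of 9, beside 0% of all tested genes). The log2 fold change was −0.70 for Ryr2 (SE 0.19, adjusted p = 0.535), −0.86 for Jph2 (SE 0.27, adjusted p = 0.542), −0.49 for Atp2a2 (SE 0.19, adjusted p = 0.56) and −0.84 for Slc8a1 (SE 0.38, adjusted p = 0.588). These 4 members passed at the unadjusted level, beside 4.91% of all tested genes. Ryr2, Jph2, Atp2a2 and Casq2 did not overlap between VO RV and sham RV, which makes 4 of 9 members beside 12.5% of all tested genes. The values for Casq2, Pln, Camk2d, Sri and Trdn were −0.25, −0.20, −0.18, −0.09 and −0.08, with adjusted p from 0.627 to 0.913.

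The size of the RV differences rested in part on VO RV library 3, which ranked between 2 and 5 from the lowest of the 12 libraries for each of the 9 members. Without it the log2 fold change was −0.53 for Jph2, −0.55 for Ryr2, −0.29 for Atp2a2 and −0.40 for Slc8a1, each with an adjusted p of 0.993. Without both it and sham RV library 1, a choice made after the data were seen, the values were −0.46, −0.38, −0.26 and −0.16 in the same order. VO RV library 2, which had high atrial markers, had 43.33 FPKM of Slc8a1 and only 963.8 FPKM of Pln, the highest and the lowest of its group. The fibroblast sum in VO RV ran from 2534 to 4953 FPKM and the ventricular cardiomyocyte sum from 17812 to 25552 FPKM. The highest fibroblast sum and the lowest cardiomyocyte sum were both those of VO RV library 2. The macrophage sum was 38.0 to 61.3 FPKM in VO RV, above the 31.4 to 37.9 FPKM of sham RV. Their part in the RV values was not tested.

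Between the overloaded ventricles, VO LV minus VO RV, none of the 9 members was called, beside 0.00719% of all tested genes. The log2 fold change was 0.68 for Ryr2 (SE 0.19, adjusted p = 0.257), 0.94 for Jph2 (SE 0.27, adjusted p = 0.269), 0.76 for Slc8a1 (SE 0.38, adjusted p = 0.471) and 0.41 for Atp2a2 (SE 0.19, adjusted p = 0.446). Ryr2 and Jph2 passed at the unadjusted level, 2 of 9 members beside 7.4% of all tested genes, and the same pair did not overlap, beside 16.1% of all tested genes. The remaining values were 0.21 for Camk2d, 0.21 for Pln, 0.18 for Casq2, 0.11 for Sri and 0.05 for Trdn. Without VO RV library 3 the values were 0.53 for Ryr2, 0.61 for Jph2, 0.32 for Slc8a1 and 0.21 for Atp2a2, with adjusted p from 0.553 to 0.88, and −0.06 for Trdn. The ventricular cardiomyocyte sum was 25663 to 28267 FPKM in VO LV, and 25552, 17812 and 25361 FPKM in VO RV libraries 1, 2 and 3. Library 2 alone gave the low end of VO RV. Myh6, Myh7 and Actc1 were higher in every VO LV library, while Tnnt2, Tnni3, Myl2 and Myl3 overlapped. The macrophage sum was 34.8 to 37.1 FPKM in VO LV, below 38.0 to 61.3 FPKM in VO RV. The skeletal muscle sum (4 of 6 listed, nearly all of it Acta1, which cardiomyocytes also express) was 2650 to 3275 FPKM in VO LV, above 1514 to 2045 FPKM in VO RV, with the defining marker Myh1 near 0. Their part was not tested.

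The difference between the LV response and the RV response was tested as the interaction of ventricle and operation, to ask whether VO acted unlike on the ventricles. Jph2, Ryr2, Slc8a1 and Atp2a2 passed the test, with a response more positive in the LV than in the RV. The same value is VO LV minus VO RV less sham LV minus sham RV, so it is not independent of the sham calls. The sham part was the larger for each gene. It was −1.51 beside 0.94 for Jph2, −0.94 beside 0.68 for Ryr2, −1.87 beside 0.76 for Slc8a1 and −0.82 beside 0.41 for Atp2a2. The difference of responses was 2.45 log2 units for Jph2 (SE 0.38, interval 1.62 to 3.28, adjusted p = 0.0249) and 1.61 for Ryr2 (SE 0.27, interval 1.03 to 2.20, adjusted p = 0.0249). It was 2.63 for Slc8a1 (SE 0.53, interval 1.46 to 3.80, adjusted p = 0.0317) and 1.23 for Atp2a2 (SE 0.27, interval 0.64 to 1.81, adjusted p = 0.0358). These 4 of 9 called members stand beside 4.19% of all tested genes, and 6 of 9 members passed at the unadjusted level, beside 23.1% of all tested genes.

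The other 5 members did not pass. The difference of responses was 0.43 for Camk2d (interval 0.14 to 0.73, adjusted p = 0.0844), 0.50 for Casq2 (interval 0.07 to 0.93, adjusted p = 0.144) and 0.50 for Trdn (adjusted p = 0.199). For Pln it was 0.31 with an interval of −0.31 to 0.92, and for Sri 0.13 with an interval of −0.22 to 0.48. The interaction calls were lost, with 0 of 9 members called, without sham LV library 1, sham LV library 2, sham RV library 1, sham RV library 2, VO LV library 2 or VO LV library 3, in fits that called 0 to 4 of all tested genes. Over the 12 fits with a library left out, the value stayed between 2.12 and 2.69 for Jph2, 1.44 and 1.78 for Ryr2, 2.19 and 2.93 for Slc8a1, and 1.03 and 1.38 for Atp2a2, with the highest adjusted p at 0.0806, 0.0806, 0.0915 and 0.104, each without VO LV library 3. Without VO RV library 3, Jph2, Ryr2 and Slc8a1 were called (adjusted p = 0.0376, 0.0427 and 0.0498) and Atp2a2 was not (adjusted p = 0.0695), beside 0.827% of all tested genes. Without both VO RV library 3 and sham RV library 1, a choice made after the data were seen, none was called and the values were 2.05, 1.3, 1.95 and 1.00 for Jph2, Ryr2, Slc8a1 and Atp2a2. With the gene-length trend removed they were 2.43, 1.36, 2.57 and 1.07 in the same order. These 4 of 9 members were called there (limma adjusted p from 0.0309 to 0.0481), beside 2.83% of all tested genes.

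**Figure D3:**
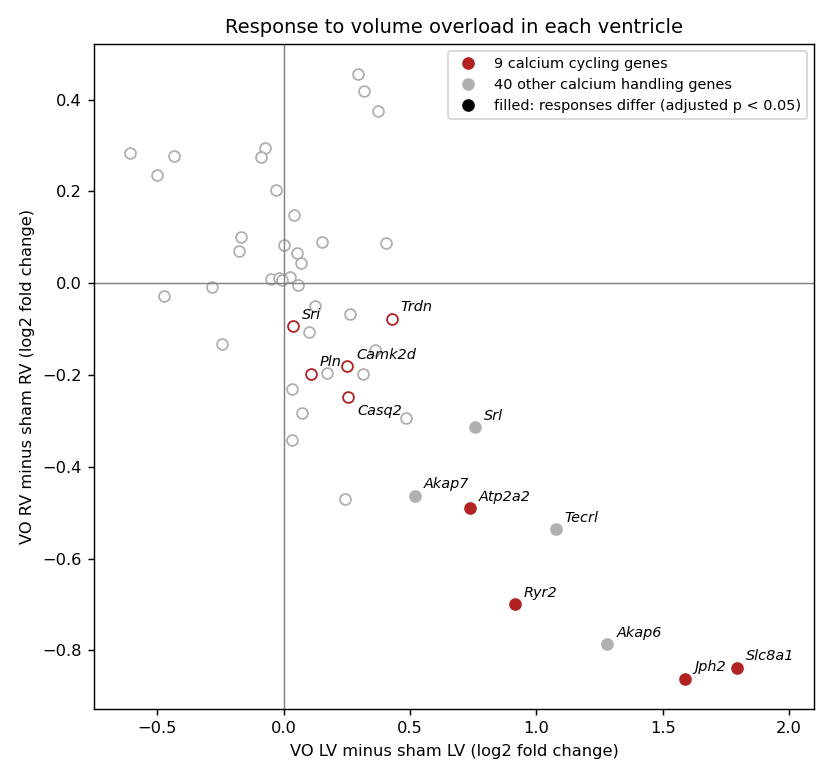
Log2 fold change with VO in the LV (x axis) and in the RV (y axis) for 9 calcium cycling genes in red and 40 other calcium handling genes in grey, with filled points where the responses passed the test of a difference. Jph2, Slc8a1, Ryr2 and Atp2a2 lie at the lower right, with LV values of 1.59, 1.79, 0.91 and 0.74 and RV values of −0.86, −0.84, −0.70 and −0.49.

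The balance of transcripts within a library was described by ratios of FPKM, which were chosen after the values had been seen and carry no test. The ratio of Pln to Atp2a2, the inhibitor over its pump, was 2.87, 2.41 and 2.39 in sham LV, and 1.36, 1.64 and 1.64 in sham RV. It was 1.77, 1.71 and 1.47 in VO LV, and 1.90, 1.34 and 2.65 in VO RV. Sham LV thus had the highest ratio (2.56 ± 0.271), above all libraries of sham RV (1.54 ± 0.161) and VO LV (1.65 ± 0.16), and the VO RV libraries were spread between 1.34 and 2.65. The ratio of Slc8a1 to Atp2a2, exchanger over pump, was 0.0226, 0.0258 and 0.0282 in sham LV, and 0.0724, 0.0501 and 0.0434 in sham RV. It was 0.0434, 0.0531 and 0.0694 in VO LV, and 0.0418, 0.0600 and 0.0297 in VO RV. All sham LV libraries were below all others for this ratio, with a mean of 0.0255 ± 0.00279 beside 0.0553 ± 0.0152 in sham RV.

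**Figure D4:**
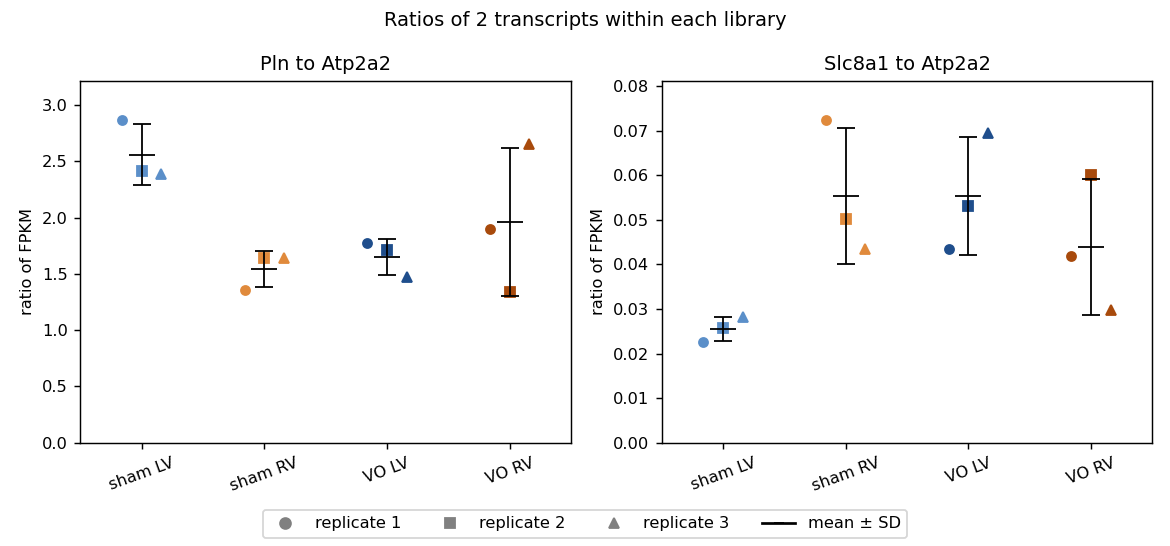
Ratio of Pln to Atp2a2 and of Slc8a1 to Atp2a2 FPKM within each library, with the groups on the x axis, 1 point per library and bars for the mean ± SD (n = 3). Sham LV has the highest Pln to Atp2a2 ratios (2.39 to 2.87) of the groups other than VO RV, whose library 3 reached 2.65, and the lowest Slc8a1 to Atp2a2 ratios (0.0226 to 0.0282).

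Several members varied together over the 12 libraries, which share depth and group, so these values are a description. Pearson's r of the log2 values was 0.976 between Atp2a2 and Jph2, 0.963 between Jph2 and Slc8a1, 0.946 between Atp2a2 and Slc8a1, 0.925 between Slc8a1 and Ryr2, 0.919 between Jph2 and Ryr2, and 0.871 between Atp2a2 and Ryr2. After the group means were subtracted, these were 0.950, 0.896, 0.831, 0.833, 0.646 and 0.522 in the same order, so Ryr2 was less close to Jph2 and Atp2a2 among libraries of the same group. Atp2a2 was also close to Trdn (r = 0.860, and 0.851 within groups), Camk2d (0.822 and 0.56) and Casq2 (0.817 and 0.656). Casq2 and Camk2d had an r of 0.906, and 0.865 within groups. Pln was nearer to Casq2 (r = 0.777) than to its target Atp2a2 (r = 0.410), and had an r of −0.02 with Sri.

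The genes with the pattern most like that of 4 chosen members, by Pearson's r over the 12 libraries and among all tested genes outside the members, were also identified. For Atp2a2 they were Gucd1 (0.992), Selt (0.989) and Fyco1 (0.988). For Ryr2 they were Fry (0.987), Rn60_8_0651.1 (0.986) and Hif1an (0.985). For Pln they were Idh3g (0.953), Sh3kbp1 (0.943) and Ndufa9 (0.932), and for Sri they were Slc36a4 (0.921), Ptbp3 (0.917) and Sdc3 (0.909). These are the highest of all tested genes over only 12 libraries that share group and depth, and are a description.

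Of 46 other genes of calcium handling, 45 were listed and 40 tested. Between the sham ventricles 3 of 40 were called, all lower in the LV, beside the 3.85% of all tested genes. They were Srl, sarcalumenin, a calcium-binding protein of the SR lumen (138 against 232 FPKM, log2 fold change −0.76, limma adjusted p = 0.0364), Akap6, which anchors protein kinase A near the ryanodine receptor (5.50 against 14.6 FPKM, −1.30, adjusted p = 0.0405), and Tecrl, an SR protein linked to inherited arrhythmia (6.98 against 15.5 FPKM, −1.17, adjusted p = 0.0483). With single libraries left out, Srl and Akap6 were called in 5 of 12 fits each and Tecrl in 4 of 12, and without sham RV library 1 no gene of the whole table was called. The median log2 fold change in this comparison was −0.46 for the 9 members, −0.10 for the 40 other genes and 0.01 for all tested genes. None of the 40 was called in the LV response, the RV response or VO LV against VO RV. The closest in the LV response were Srl with a log2 fold change of 0.76 (adjusted p = 0.0534), Akap6 with 1.28 (adjusted p = 0.0582) and Tecrl with 1.08 (adjusted p = 0.0757). Without VO RV library 3 they were called, with adjusted p of 0.0292, 0.0227 and 0.0357, in the fit that called 3.99% of all tested genes.

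In the RV response the smallest p-values among these genes were those of Akap7, another anchoring protein of protein kinase A, with a log2 fold change of −0.46, Akap6 with −0.79 and Hrc, a calcium-binding protein of the SR lumen, with −0.28 (adjusted p = 0.549, 0.56 and 0.579). Without VO RV library 3 they were −0.30, −0.46 and −0.26, each with an adjusted p of 0.993. Between the overloaded ventricles the smallest p-values were those of Bin1, which shapes the T-tubule membrane, with −0.46, Akap6 with 0.77 and Akap7 with 0.36 (adjusted p = 0.281, 0.371 and 0.444), and without VO RV library 3 they were −0.39, 0.44 and 0.20. In the test of the difference of responses, 4 of 40 were called, all more positive in the LV, beside the 4.19% of all tested genes. The values were 2.07 for Akap6 (adjusted p = 0.0315), 1.07 for Srl (adjusted p = 0.0329), 0.98 for Akap7 (adjusted p = 0.0436) and 1.61 for Tecrl (adjusted p = 0.0491). Without VO RV library 3 these were 1.74, 0.95, 0.83 and 1.3, and none of the 4 was called (adjusted p from 0.0539 to 0.101). With single libraries left out, Akap6 and Srl were called in 5 of 12 fits each and Akap7 and Tecrl in 3 of 12, and without sham LV library 1, sham LV library 2, sham RV library 1, VO LV library 2 or VO LV library 3 no gene of the whole table was called. Akap7 overlaps AABR07000658.1 on the opposite strand, so its value is uncertain. The median difference of responses was 0.50 for the 9 members, 0.01 for the 40 other genes and −0.04 for all tested genes. In the LV response the medians were 0.43, 0.05 and −0.02, and in the RV response −0.25, 0.01 and 0.00.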

How the data were processed

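mRNA was selected with poly-T beads, and libraries were made with the NEBNext Ultra kit. Per the labels, the authors aligned reads with HISAT2 2.0.5 and counted them with featureCounts 1.5.0-p3. The strand setting, genome build and annotation release were not given in the sources used here. The deposited table holds FPKM for each gene and library, computed by the authors. Every value under 200 reads was a whole multiple of 1 read within a tolerance of 0.02, in 100% of cases, and reads were recovered from FPKM and gene length. The FPKM implied library totals of 0.967 to 1.12 times the sum of reads, a further scaling that was not given in the sources used here. These recovered reads gave the depths and, with voom, an alternative. The table had 0 value columns without a sample.

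The filter kept genes whose FPKM averaged 0.5 or more, FPKM was rescaled by median-ratio size factors, and log2(FPKM + 0.5) was fitted with limma 3.58.1 in R 4.3.3 with 1 mean per group over all 12 libraries. The 5 comparisons were contrasts of that fit, with Benjamini-Hochberg adjustment over all 13910 genes. The script was tested on simulated data. FPKM printed for a library is the deposited value. Libraries held 14121713 to 16871371 reads on genes, and counting error is part of the spread between them.

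All 10 members were named by rule. Of the other calcium handling genes, those called in a comparison were named (up to 5), otherwise those with the smallest p. Members and lists were chosen with earlier results of these data known. Promoters came from RefSeq (GRCr8), where 10 of 10 members matched by symbol. Alternatives changed the pseudocount, filter, scaling, samples, variance model, covariates and replicates.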

Additional observations from a re-analysis of the deposited data

Results flagged for a closer look

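For 8 genes the response to VO differed between the LV and the RV by the interaction term of limma (3 libraries per group, Benjamini-Hochberg adjustment over all tested genes). They were 4 of 9 members and 4 of 40 other calcium handling genes, beside 4.19% of all tested genes. Among the members the LV response exceeded the RV response by 2.45 log2 units for Jph2, 1.61 for Ryr2, 2.63 for Slc8a1 and 1.23 for Atp2a2. Among the other calcium handling genes the difference was 2.07 for Akap6, 1.07 for Srl, 0.98 for Akap7 and 1.61 for Tecrl. The sham difference between the ventricles is part of all 8 values, so they are not independent of the sham comparison. These calls rested on single libraries, since no gene of the whole table was called without sham LV library 1, sham LV library 2, sham RV library 1, VO LV library 2 or VO LV library 3, and 3 of the 8 (Jph2, Ryr2 and Slc8a1) were called without VO RV library 3. Every group had 3 libraries, too few for the screen for a single distant library.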

How the results depend on the processing

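Jph2, Slc8a1, Ryr2 and Atp2a2 kept their direction in all 5 comparisons under every setting run, 28 per comparison and 27 for the difference of responses, while their calls did not hold throughout. Srl, Akap6, Akap7, Tecrl, Hrc and Bin1 also kept their direction under the settings run for the comparisons that name them. Over 1251 fold changes of the 9 members under these settings, 1120 kept direction and side of the threshold, 81 lost the threshold, 29 gained it and 21 changed sign. The number of members called between the sham ventricles, 4 of 9, was 0 with no filter on low values (0.037% of all tested genes called in that fit), 0 with the cardiomyocyte covariate (0.0431%) and 0 without both sham RV library 1 and VO RV library 3 (0%). It ran from 0 to 4 with single libraries left out, in fits that called 0% to 6.27% of all tested genes. For the difference of responses, 4 of 9, it was 0 with no filter (0.0972% of all tested genes called in that fit), 2 with the covariate of Y-linked genes (1.27%) and 0 without those libraries (0%). It ran from 0 to 5 with single libraries left out, in fits that called 0% to 7.21% of all tested genes. For the LV response, 0 of 9, it was 1 with a pseudocount of 0.1 (0.403% of all tested genes called in that fit), 3 with a mean FPKM of at least 1 (1.44%), 3 with only the groups compared (0.855%), 4 with array weights (5.06%), 3 with voom on recovered reads (2.44%), 3 with the atrial covariate (1.93%) and 4 without those libraries (3.66%), and ran from 0 to 4 with single libraries left out (0% to 3.99%). Leaving both libraries out was chosen after seeing the data. The cause of these shifts was not tested. No setting called a member in the RV response or in VO LV against VO RV. Over all tested genes the number called ran from 0 to 1321 between the sham ventricles (536 as reported), from 0 to 704 in the LV response (13), from 0 to 1 in the RV response (0), from 1 to 48 in VO LV against VO RV (1) and from 0 to 1305 for the difference of responses (583).

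The labels give the groups the same replicate numbers. With the number as a replicate block, 0 of 9 members were called between the sham ventricles, where the adjusted p of Jph2, Ryr2, Slc8a1 and Atp2a2 ran from 0.0741 to 0.0808, and 0 of 9 for the difference of responses, where it ran from 0.0637 to 0.0723. The block left 3 and 1 of all tested genes called in these comparisons. Deviations of same-numbered libraries correlated between −0.218 and 0.123, so the numbers were not taken as pairs.

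Changes of sign were found for small log2 values. Sri between the sham ventricles (−0.02) was 0.0357 with array weights, 0.00586 with the atrial covariate, 0.0969 with the cardiomyocyte covariate and 0.0457 without both libraries, and ran from −0.115 to 0.0469 with single libraries left out, where Pln ran from −0.198 to 0.104. In the LV response Pln was −0.00416 with array weights and ran from −0.0875 to 0.214, and Sri was −0.0387 with the Y-linked covariate, −0.00135 with the cardiomyocyte covariate and ran from −0.0293 to 0.132. In the RV response Pln ran from −0.351 to 0.00739 and Trdn from −0.143 to 0.0349, while without both libraries Trdn was 0.0189 and Sri 0.00828. In VO LV against VO RV, Trdn was −0.0623 without both libraries and ran from −0.0637 to 0.128, and the log2 ratio of Pln to Atp2a2 (−0.19) ran from −0.444 to 0.0507.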
